A study of Mus musculus with 8 samples.

Results

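The genes described here act as writers and erasers of DNA methylation, with Mbd2 as a reader: Dnmt1, Dnmt3a, Dnmt3b, Uhrf1, Uhrf2, Tet1, Tet2, Tet3, Tdg and Mbd2. They were picked by symbol from the table of normalized gene counts, where all 10 were found among 24303 genes. The study cultured P14 cells, CD8+ T cells from mouse spleen that carry a transgenic receptor for the GP33 peptide, and asked whether lasting antigen with TGF-beta1 gives a dysfunctional state in vitro. Polyadenylated RNA was sequenced from 4 groups with 2 libraries each. All cells were first activated with anti-CD3 and anti-CD28. IL-2 was in the medium from the start and IL-15 after the 2 days of activation. The Effector group was harvested on day 7. The paper describes its day 7 effector cells as stimulated for 7 days, with GP33 added after activation. Acute-2d cells were kept without peptide after the 2 days of activation and collected on day 19. Acute-7d cells received GP33 up to day 7, then rested without it and were collected on day 19. T_Dysf cells received GP33 up to day 19, with TGF-beta1 from day 7 on. Cultures of a single transgenic receptor outside the animal limit what these groups can model.

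DNA methylation in mammals sits mostly on cytosines of CG pairs. Dnmt1, guided by Uhrf1 to newly replicated DNA, copies the marks onto the daughter strand, while Dnmt3a and Dnmt3b place marks at new sites. Tet enzymes oxidize methylcytosine, the glycosylase Tdg cuts out the oxidized bases for repair, and readers such as Mbd2 bind methylated CG pairs; in CD8+ T cells, Dnmt3a is known for silencing memory genes as effector cells form.

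Depth was similar in all 8 libraries, from 19382147 reads on genes in Acute-7d replicate 1 to 24856195 in T_Dysf replicate 1, so each member was measured far above the floor of 3 reads, which was at most 3.35 normalized counts. The libraries differed in genes of the sex chromosomes, however. Xist, the RNA of the inactive X chromosome, was at 114.9 and 53.5 normalized counts in the Effector libraries and at 54.5 in Acute-7d replicate 1, against 21871 to 30427 in the other 5. Ddx3y, a gene of the Y chromosome, was at 1334, 1491 and 2161 in those 3 libraries and between 0 and 2.6 in the rest. The same 3 libraries carry the prefix RESUB in their labels, whose meaning is not given. Every comparison of Effector with T_Dysf therefore sets libraries of the one kind against libraries of the other, and the 2 differences cannot be told apart there; Acute-7d holds 1 library of each kind.

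Markers of CD8 T cells were high in every library. Cd8a lay between 11170.3 and 36163 normalized counts, and the 6 markers together were highest in T_Dysf, at 122142 and 117732. Of these, Cd3e and Cd3g were called higher in T_Dysf against all 3 other groups. Cd2 went the other way, at 3439 and 3478 in T_Dysf against 6566 to 8820.5 elsewhere, and was called lower against Acute-7d (-1.31) and Acute-2d (-1.21). Cd4 was between 1.0 and 13.0. The summed B cell list (4 genes, Cd79b the most abundant) lay between 49.1 and 160.8, the myeloid list (5 genes, led by Lyz2) between 262.6 and 648.1, and the erythroid list (3 genes, led by Hbb-bs) between 21.3 and 42.6. The NK cell list (3 genes, led by Klrb1c) lay between 339.1 and 1573, and the CD4 T cell list (3 genes, led by Zbtb7b) between 1057 and 1636. These sums hide single genes: in T_Dysf against Acute-7d, Klri2 was called higher (3.65), Ncr1 lower (-4.19) and Cd79b higher (1.84). In Acute-7d against Effector, Foxp3 was called higher (3.29) and Cd79b lower (-1.63), and in T_Dysf against Effector Csf1r was called higher (1.44), where Foxp3 and Csf1r were at most 49.5 and 21.0 normalized counts in any library. The study purified the cells by flow sorting before sequencing, and the part of any remaining other cells in the results below was not tested.

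Members differed widely in level. Divided by exon length in kilobases, the mean over the 8 libraries was highest for Mbd2, at 1754 normalized counts per kilobase. Dnmt1 followed at 730.7, Uhrf1 at 630.1, Uhrf2 at 420.8 and Tdg at 356. Tet3 was at 245.5 per kilobase, Dnmt3a at 176, Tet2 at 140.0, Dnmt3b at 81.6 and Tet1 at 6.28. Tet1 was thus the scarcest of the Tet genes on this scale, and Dnmt3b the scarcer of the de novo enzymes. The order moved with the group: in Effector cells Uhrf1 (1794 ± 828.2 per kilobase, SD, n = 2), Mbd2 (1779 ± 209.6) and Dnmt1 (1590.0 ± 648.5) did not differ beyond their spread, while in T_Dysf cells Mbd2 (1846 ± 12.2) stood above Dnmt1 (648.5 ± 64.7) and Uhrf1 (457 ± 24.1).

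**Figure D1:**
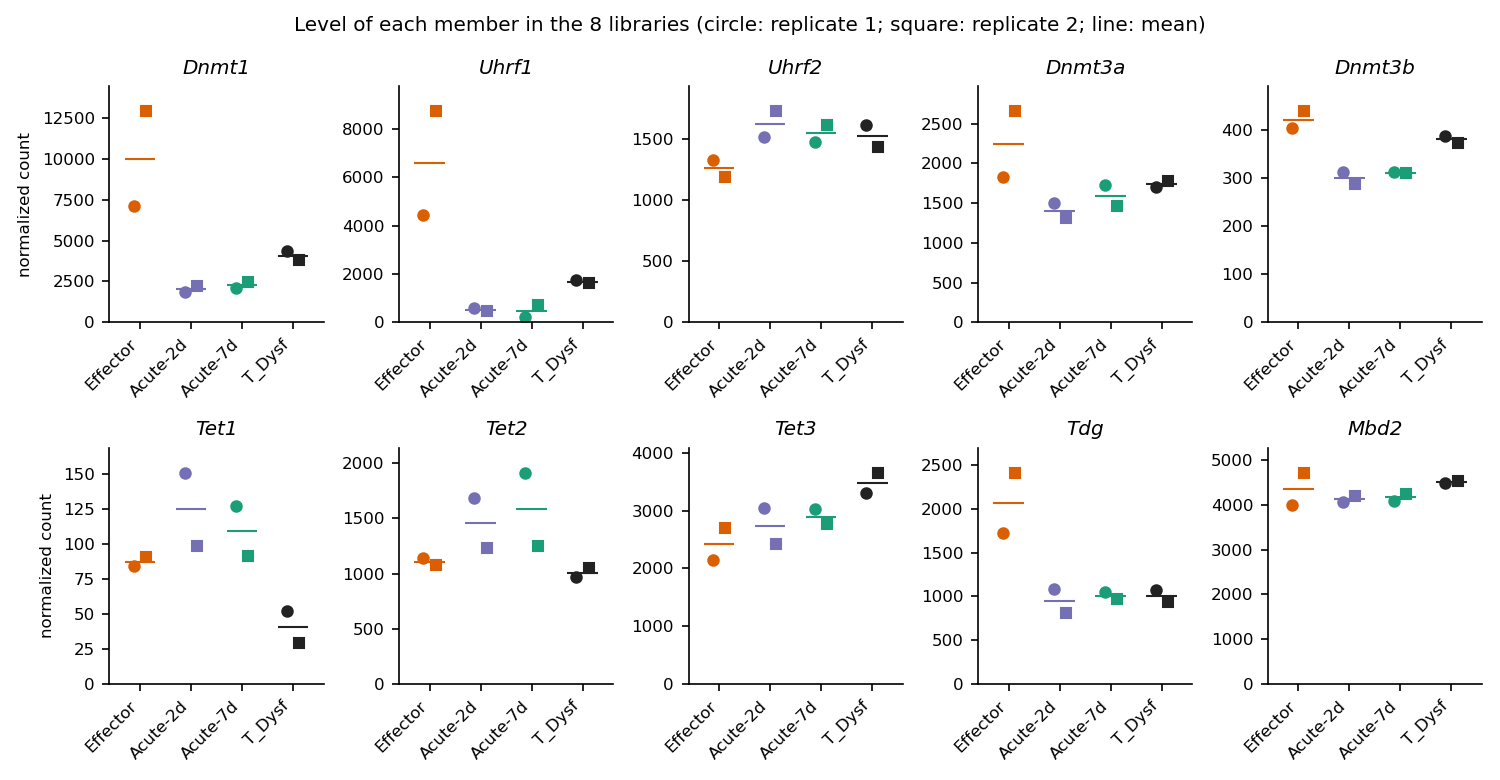
Normalized count of each of the 10 members (vertical axes, each from 0) in the Effector, Acute-2d, Acute-7d and T_Dysf libraries; circles are replicate 1, squares replicate 2 and lines group means. Dnmt1, Uhrf1 and Tdg were highest in both Effector libraries, and Tet1 was lowest in both T_Dysf libraries, at 51.8 and 29.4.

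Genes were compared on log2(normalized count + 1) with limma, in 1 fit over the whole table, and called where the adjusted p was under 0.05 and the fold change at least 2. The fit borrows a prior spread from all genes, and over the whole table, where 1263 genes were at 0 in every library, that prior was worth only 0.888 degrees of freedom; over the 12028 genes with a mean of at least 50 it was worth 3.36. Neither table is stricter throughout: between Acute-7d and Acute-2d, 41 genes were called over the whole table and 1 among the 12028. A member that is not called is therefore not shown to be unchanged, and the counts from those 12028 genes are given beside the first ones.

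None of the 10 members was called between T_Dysf and Acute-7d, where 5.57% of all genes were. An unadjusted p under 0.05 was found for 4 members and 26.1% of all genes. Among genes with a mean of at least 50, limma called 2 members, Uhrf1 and Tet1, against 12.3% of those genes, and limma-voom on the whole table called 0 members and 6.46% of genes. Between T_Dysf and Acute-2d, limma again called 0 members against 7.35% of all genes, with 4 members and 27.7% of genes at an unadjusted p under 0.05; the narrower table gave 3, Dnmt1, Uhrf1 and Tet1, against 14.1%, and limma-voom 1 against 8.56%. The median log2 fold change of the members was 0.12 and 0.22 in these comparisons, and that of all genes was 0.00 in both.

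Against Effector cells all called members were lower, while 3 members in T_Dysf and 4 in Acute-7d had a positive log2 fold change that was not called. T_Dysf had 1 called member, Tdg, where 9.22% of all genes were called and 4.75% were called lower; the narrower table gave 3, Dnmt1, Uhrf1 and Tdg, against 18.4%. Acute-7d had 3, the same Dnmt1, Uhrf1 and Tdg, all lower, where 8.06% of all genes were called and 4.18% were called lower; the narrower table gave those 3 as well, against 16.1%. The median log2 fold change of the members was -0.25 in T_Dysf and -0.24 in Acute-7d, against 0.00 for all genes. These comparisons share the Effector libraries, and those with T_Dysf share the T_Dysf libraries, so their values are not independent.

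Between Acute-7d and Acute-2d, limma called no member and 0.169% of all genes, with 0 members and 7.31% of genes at an unadjusted p under 0.05, and limma-voom called 0 members and 0 genes. The largest difference among the members was that of Uhrf1, at a log2 fold change of -0.34 (SE 0.60), and the intervals of all 10 included 0. No member had ranges that were apart in these groups, while 37.5% of the genes with a mean of at least 50 did. With 2 libraries a group, ranges are often apart: for T_Dysf this held for 7 members against Acute-7d, 8 against Acute-2d and 9 against Effector, and for 73.7%, 72.7% and 74.9% of those genes. Between Acute-7d and Effector it held for 9 members and 73.0% of the genes. Ranges without overlap, given below for single members, are thus a description that most genes share.

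**Figure D2:**
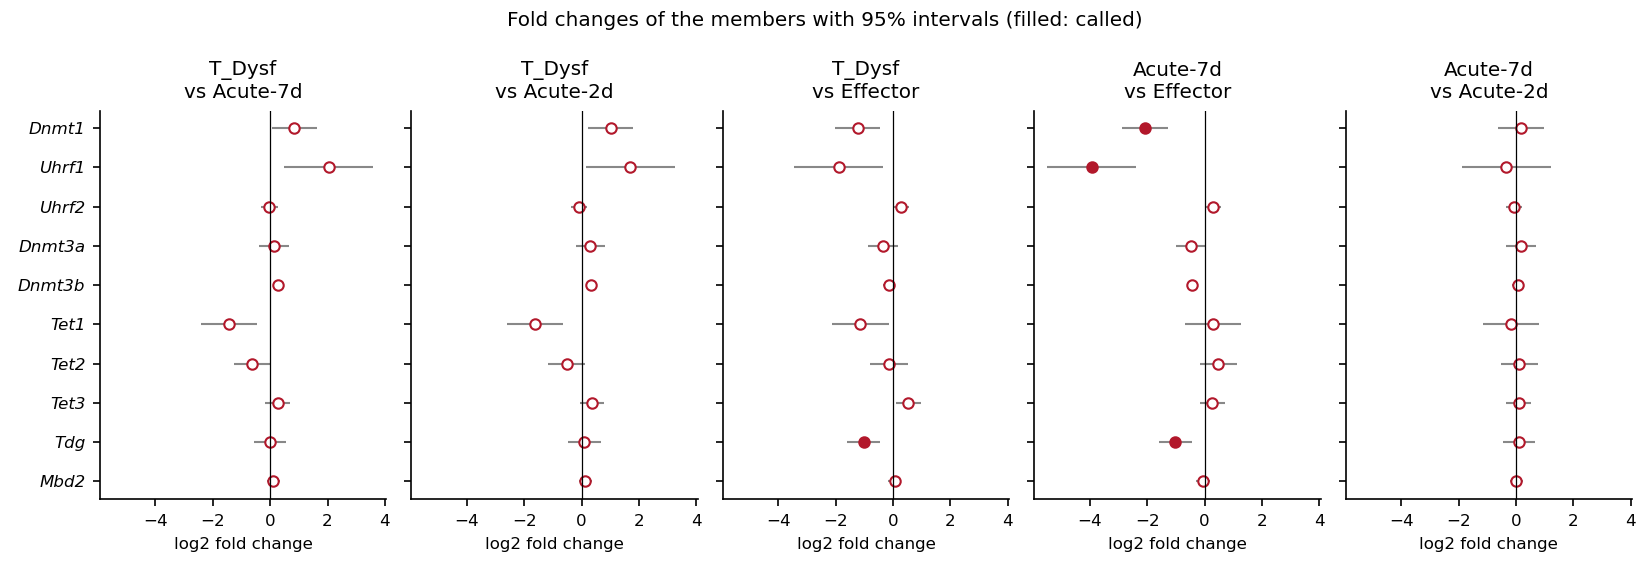
Log2 fold change of each member (points) with its 95% interval (lines) in the 5 comparisons, first-named group over second; filled points were called. The called points are Tdg in T_Dysf against Effector and Dnmt1, Uhrf1 and Tdg in Acute-7d against Effector, all below 0.

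Dnmt1, the maintenance methyltransferase, lies on chromosome 9 (GRCm38, 20907209 to 20959888, minus strand). It stood at 7132 and 12910.0 normalized counts in the Effector libraries, 1862 and 2193 in Acute-2d, 2075 and 2488 in Acute-7d, and 4374 and 3798 in T_Dysf. Both Effector libraries were above all others, both T_Dysf libraries were above all 4 rested ones, and the rested groups overlapped. From Effector to Acute-7d the log2 fold change was -2.08 (SE 0.30, adjusted p = 0.0217 by limma), a level 4.22-fold lower. It was -1.24 (SE 0.30, adjusted p = 0.0595) from Effector to T_Dysf, and ran from -1.66 to -0.81 there over the alternative fits given below. T_Dysf stood above Acute-7d by 0.84 (SE 0.30, adjusted p = 0.169) and above Acute-2d by 1.01 (SE 0.30, adjusted p = 0.110), which did not pass.

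Uhrf1, which recognizes half-methylated CG pairs behind the replication fork and brings in Dnmt1, had the widest range of the members, 36.9-fold from the lowest to the highest library. The counts were 4433 and 8727 in Effector, 571 and 465 in Acute-2d, 237 and 699.6 in Acute-7d, and 1738 and 1614 in T_Dysf. As for Dnmt1, T_Dysf lay between Effector and the rested cells, with no overlap on either side. Uhrf1 had a log2 fold change of -3.93 (SE 0.60, adjusted p = 0.0230) in Acute-7d against Effector, 15.2-fold lower. In T_Dysf it was -1.89 (SE 0.60, adjusted p = 0.104) against Effector, 2.04 (SE 0.60, adjusted p = 0.113) against Acute-7d and 1.70 (SE 0.60, adjusted p = 0.150) against Acute-2d. Acute-7d replicate 1, the RESUB library of its group, was the lowest of all 8; without it the difference between T_Dysf and Acute-7d was 1.26, and without Acute-7d replicate 2 it was 2.82. With a term for the RESUB libraries, which only the Acute-7d pair can estimate, the difference between T_Dysf and Effector was -3.45 (SE 0.64, adjusted p = 0.114).

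The calls of Dnmt1 and Uhrf1 in Acute-7d against Effector were near the threshold, and fits with 1 library fewer, which have fewer degrees of freedom, lost several of them. That of Dnmt1 was lost when Acute-7d replicate 1 (log2 fold change -1.95), Acute-7d replicate 2 (-2.21), or either T_Dysf library (-2.08) was left out. That of Uhrf1 was lost without Effector replicate 2 (-3.44), Acute-7d replicate 1 (-3.15), or either library of Acute-2d or T_Dysf (-3.93). Libraries outside the comparison leave the fold change as it was, so those losses come from the estimate of the spread and its degrees of freedom. With only the groups compared, both calls were lost at the same fold changes (adjusted p = 0.128 for Dnmt1 and 0.136 for Uhrf1 by limma). With a term for the RESUB libraries fewer members were called, as given below. Among libraries with the RESUB prefix alone, Acute-7d replicate 1 stood below both Effector libraries for Dnmt1, Uhrf1 and Tdg.

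Uhrf2, a relative of Uhrf1 on chromosome 19, did not share its pattern. It stood at 1332 and 1188 in Effector, 1517 and 1727 in Acute-2d, 1478 and 1617 in Acute-7d, and 1612 and 1432 in T_Dysf. The Effector libraries were the lowest and the other groups overlapped, with a range of 1.45-fold over all 8 libraries and no called difference.

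Dnmt1 and Uhrf1 were both highest in Effector, next in T_Dysf and lowest in the rested cells, and the promoters of the members were searched for a short sequence. RefSeq (GRCm38.p6) gave 14 promoters of 300 bases for 9 members. All were read on both strands for the E2F-type words TTTCGCGC, TTTGGCGC, TTTCCCGC and TTTGCCGC, which 2.3% of 32851 promoters hold. A match was found in 1 of 3 promoters of Dnmt1, in 1 of 2 of Uhrf1 and in none of the other 7 members. Among the lists of proliferation genes it was found for 5 of 12 S phase genes and 1 of 11 mitosis genes. Counted by gene, 2.6% of all 27025 genes had a match. Each word holds a CG pair, and the matching promoters of Dnmt1 and Uhrf1 held 33 CG pairs each, against a median of 7 over all promoters. All 9 members had a promoter over that median. The shares over all promoters and genes are thus not matched for CG content. The 250 bases before the start site are shown for Dnmt1 and Uhrf1, with the matches in capitals. These begin 219 bases before the start in Dnmt1 (on the opposite strand) and 185 bases before it in Uhrf1. A further match in Dnmt1, TTTGGCGC, begins 34 bases after the start. The counts do not tell the start sites of a gene apart. A match describes the letters only.
Dnmt1 (GRCm38.p6, chr9:20952624-20952873, minus strand): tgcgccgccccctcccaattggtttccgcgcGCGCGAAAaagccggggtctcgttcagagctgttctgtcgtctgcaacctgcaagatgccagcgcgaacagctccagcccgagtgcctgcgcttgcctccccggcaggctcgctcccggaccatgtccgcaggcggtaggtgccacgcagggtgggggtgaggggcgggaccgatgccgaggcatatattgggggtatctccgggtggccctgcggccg
Uhrf1 (GRCm38.p6, chr17:56304063-56304312, plus strand): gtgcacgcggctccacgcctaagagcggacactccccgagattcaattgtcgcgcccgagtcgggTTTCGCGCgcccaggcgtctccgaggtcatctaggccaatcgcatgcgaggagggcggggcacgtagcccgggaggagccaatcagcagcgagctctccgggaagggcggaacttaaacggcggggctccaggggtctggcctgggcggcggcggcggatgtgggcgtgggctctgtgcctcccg

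Genes of S phase and mitosis were also highest in Effector. The summed level of 14 S phase genes, of which Pcna was the most abundant, was 52025 and 93175 in Effector, 17245 and 16558 in Acute-2d, 13593 and 18722 in Acute-7d, and 29782 and 28584 in T_Dysf. The summed level of 12 mitosis genes, led by Mki67, was 44443 and 76667 in Effector, 9616 and 7102 in Acute-2d, 3411 and 10712 in Acute-7d, and 23714 and 20678 in T_Dysf. Both sums were highest in Effector, next in T_Dysf and lowest in the rested cells. From Effector to Acute-7d, 13 of the 14 S phase genes and all 12 mitosis genes were called lower, as were 4.18% of all genes, with medians of -2.29 and -3.45. From Effector to T_Dysf, 2 of the 14 (Mcm3 and Mcm6) and 0 of the 12 were called lower, against 4.75% of all genes, with medians of -1.28 and -1.36. Between T_Dysf and Acute-7d none of either list was called, against 5.57% of all genes. All 14 and all 12 had a positive log2 fold change, with medians of 1.02 and 1.90. In this comparison Pcna had a log2 fold change of 0.60 (SE 0.27), Mki67 of 1.82 (SE 0.63) and Top2a of 1.78 (SE 0.62). These values rest in part on Acute-7d replicate 1, the RESUB library of its group. Its mitosis sum was 3411 against 10712 in replicate 2, and its Mki67 count 1096 against 3371.

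Set against S phase, Dnmt1 and Uhrf1 differed. Dnmt1 amounted to 13.7% and 13.9% of the S phase sum in Effector, 10.8% and 13.2% in Acute-2d, 15.3% and 13.3% in Acute-7d, and 14.7% and 13.3% in T_Dysf. Acute-2d had the lowest shares, with replicate 2 just under those of the other groups and replicate 1 further below. The shares of the other groups overlapped. Uhrf1 amounted to 8.52% and 9.37% of the sum in Effector, 3.31% and 2.81% in Acute-2d, 1.74% and 3.74% in Acute-7d, and 5.84% and 5.65% in T_Dysf, so its share differed between Effector, T_Dysf and the rested cells without overlap. The sum is weighted to its abundant genes, and single genes of the list varied more than it. From Effector to Acute-7d, Rrm2 (log2 fold change -3.72), Cdc6 (-3.34) and Cdc45 (-3.21) came near Uhrf1 (-3.93), against a list median of -2.29. From Effector to T_Dysf the same genes were at -1.22, -1.385 and -1.43, against -1.89 for Uhrf1. In bulk RNA, fewer dividing cells and less RNA per cell cannot be told apart, and the part of cell division in these differences was not tested.

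**Figure D3:**
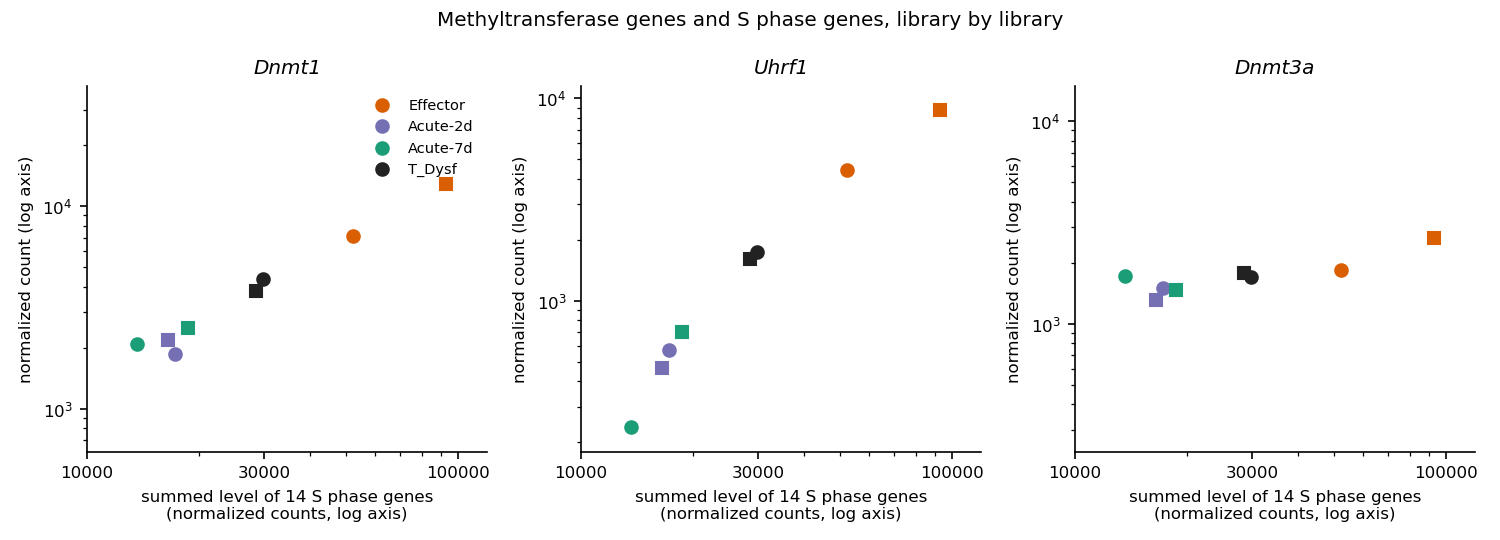
Normalized count of Dnmt1, Uhrf1 and Dnmt3a (vertical log axes, each spanning the same number of folds) against the summed level of 14 S phase genes (horizontal log axis) in the 8 libraries; circles are replicate 1 and squares replicate 2. Uhrf1 was higher wherever the S phase sum was higher, over a range of 36.9-fold, Dnmt1 followed it between Effector, T_Dysf and the rested libraries but not among the rested ones, and Dnmt3a spanned 2.03-fold.

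The genes most like the called members over the 8 libraries were found by Pearson r on log2(normalized count + 1) among the 12028 genes with a mean of at least 50. For Uhrf1 they were Kif14 (r = 0.999), Cit (0.999) and Asf1b (0.998), of which Kif14 encodes a kinesin of cell division and Asf1b a histone chaperone. For Dnmt1 they were Pop1 (0.998), Gfm1 (0.997) and Gm11585 (0.997). For Tdg they were Nol11 (0.995), Rps6kb1 (0.992) and Fignl1 (0.991). The 8 libraries form 4 pairs, so these values mostly follow the differences between groups, and they are given as a description.

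The de novo methyltransferases varied less. Dnmt3a, on chromosome 12, stood at 1835 and 2655 in Effector, 1502 and 1311 in Acute-2d, 1724 and 1463 in Acute-7d, and 1697 and 1777 in T_Dysf. The Effector libraries were the highest, T_Dysf overlapped Acute-7d and lay above Acute-2d, and no difference was called. Because Dnmt1 varied more, Dnmt3a amounted to 0.257 and 0.206 of the Dnmt1 count in Effector, 0.388 and 0.468 in T_Dysf, and 0.588 to 0.831 in the 4 rested libraries, 3 ranges that did not overlap.

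Dnmt3b, on chromosome 2, was at 404 and 438 in Effector, 313 and 287 in Acute-2d, 311 and 311 in Acute-7d, and 388 and 372 in T_Dysf. Its replicates were close: the pooled SD of log2 values within groups was 0.06, against a median of 0.20 over the genes with a mean of at least 50. Effector and T_Dysf were both above all rested libraries, by less than a 2-fold change. From Acute-2d to T_Dysf the adjusted p was 0.0497 at a log2 fold change of 0.34 (SE 0.07), short of the fold that a call needs, and from Effector to Acute-7d it was 0.0271 at -0.43 (SE 0.07). Among the 12028 genes these adjusted p values were 0.128 and 0.0564, so both passed only over the whole table.

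Among the erasers, Tet1 and Tet2 were lowest in T_Dysf and Tet3 was highest there, with no call over the whole table. Tet1, on chromosome 10, had low counts throughout: 84.1 and 90.3 in Effector, 150.6 and 98.2 in Acute-2d, 127 and 90.9 in Acute-7d, and 51.8 and 29.4 in T_Dysf. Both T_Dysf libraries were below the other 6, Effector lay just below the rested groups, and the rested groups overlapped. The log2 fold change of T_Dysf was -1.44 (SE 0.38, adjusted p = 0.0904) against Acute-7d, -1.62 (SE 0.38, adjusted p = 0.0610) against Acute-2d and -1.14 (SE 0.38, adjusted p = 0.116) against Effector. None passed over the whole table. Among the 12028 genes the adjusted p by limma was 0.0375 and 0.0220 against the rested groups, and these were calls. Over the alternative fits given below, the value against Effector ran from -1.54 to -0.66. In the 5 libraries with no RESUB prefix the difference from Acute-7d was -1.20 (adjusted p = 0.385).

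Tet2, on chromosome 3, was at 1138 and 1081 in Effector, 1682 and 1231 in Acute-2d, 1915 and 1251 in Acute-7d, and 965 and 1046 in T_Dysf. The rested groups were higher and scattered, with replicate 1 of each well above replicate 2, and T_Dysf lay below all other libraries. In T_Dysf the log2 fold change was -0.62 (SE 0.25, adjusted p = 0.203) against Acute-7d and -0.52 (SE 0.25, adjusted p = 0.266) against Acute-2d. Over the alternative fits given below, these values ran from -0.93 to -0.32 and from -0.74 to -0.29.

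Tet3, on chromosome 6, was at 2135 and 2705 in Effector, 3037 and 2425 in Acute-2d, 3021 and 2771 in Acute-7d, and 3307 and 3653 in T_Dysf. T_Dysf was above the other 6 libraries, Acute-7d lay above Effector, and Acute-2d overlapped both. Against Effector the log2 fold change of T_Dysf was 0.53 (SE 0.17, adjusted p = 0.1003). Among the 12028 genes the adjusted p was 0.0375, short of the fold that a call needs, and Tet3 was not called in any comparison. The summed count of Tet2 and Tet3 was 3272 and 3786 in Effector, 4719 and 3655 in Acute-2d, 4936 and 4022 in Acute-7d, and 4272 and 4699 in T_Dysf, so T_Dysf fell within the range of the rested cells. The ratio of Tet3 to Tet2 was 3.43 and 3.49 in T_Dysf, against 1.58 to 2.501 in the other 6 libraries, a gap with no overlap; this ratio was chosen after its values were seen and was not tested.

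**Figure D4:**
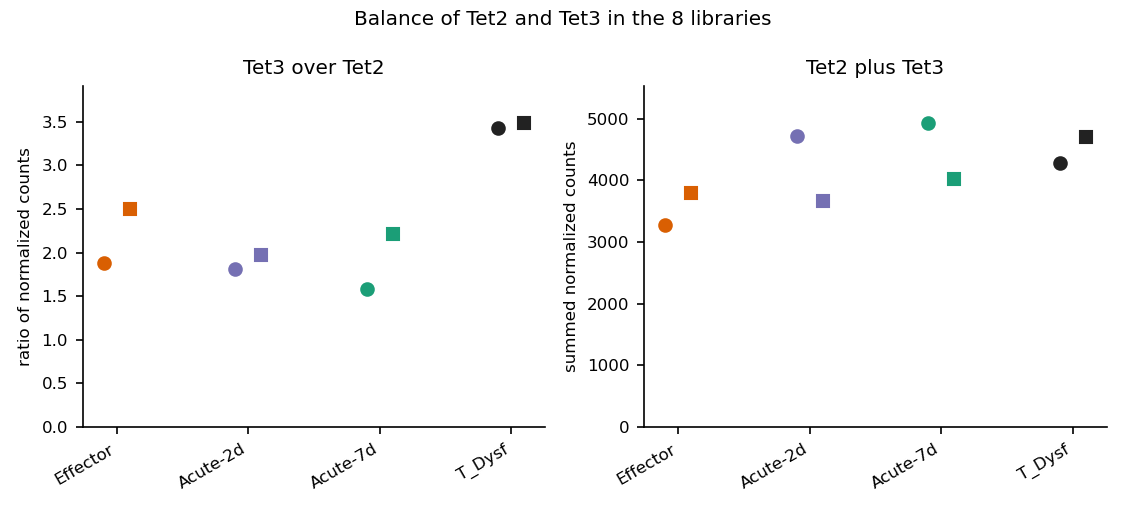
Ratio of the normalized counts of Tet3 and Tet2 (left, vertical axis from 0) and their sum (right, normalized counts, from 0) in each library of the 4 groups; circles are replicate 1 and squares replicate 2. The ratio was 3.43 and 3.49 in T_Dysf and at most 2.501 elsewhere, while the sums of T_Dysf, 4272 and 4699, lay among those of the rested cells.

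Tdg, on chromosome 10, was at 1724 and 2415 in Effector, 1085 and 808 in Acute-2d, 1047 and 967 in Acute-7d, and 1076 and 937 in T_Dysf. It was high in Effector only, and the day 19 groups overlapped. The log2 fold change was -1.02 (SE 0.22, adjusted p = 0.0430) in T_Dysf against Effector and -1.02 (SE 0.22, adjusted p = 0.0450) in Acute-7d against Effector, close to both thresholds. Both calls were lost when Effector replicate 2 was left out, at -0.78 each, and when any single library other than Effector replicate 1 was left out, with values between -1.12 and -0.92. With equal 75th percentiles the values were -0.99 and -0.91 and neither was called, and with quantile normalization that of Acute-7d was -0.94 and not called. With only the groups compared, both calls were lost at the same fold changes (adjusted p = 0.128 in T_Dysf and 0.142 in Acute-7d by limma). The call in T_Dysf was also lost with a term for the RESUB libraries and with a replicate block. The table also holds the pseudogenes Tdg-ps, at 18.4 to 100.8, and Tdg-ps2, at 130.4 to 418.8, both highest in Effector replicate 2; they could share reads with Tdg, whose value is uncertain to that extent.

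Mbd2, the reader in the list, varied least, from 3993 in Effector replicate 1 to 4719 in Effector replicate 2, a range of 1.18-fold. Acute-2d was at 4067 and 4201, Acute-7d at 4096 and 4254, and T_Dysf at 4500.2 and 4542. T_Dysf lay above both rested groups, at a log2 fold change of 0.12 (SE 0.09, 95% interval -0.11 to 0.34) against Acute-7d, which includes 0.

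The genes of related lists are counted below; of all genes, 5.57% were called in T_Dysf against Acute-7d, 7.35% against Acute-2d and 9.22% against Effector, and 8.06% in Acute-7d against Effector. Of the 43 genes of these lists, 2, 2, 10 and 5 were called in these comparisons, and of the 41 with a mean of at least 50, the narrower table called 4, 4, 14 and 11. Leaving out a library in turn gave 0 to 4, 0 to 3, 3 to 13 and 0 to 10, so counts of 0 below are not a lack of change. Fits of only the groups compared gave 1, 1, 2 and 0, and a replicate block gave 0, 0, 9 and 6, so single calls below, against Effector as well as against the rested groups, are not stable. A list of 9 other genes of the Mbd family and of zinc finger readers, not all of which bind methylated CG pairs, had no call between T_Dysf and either rested group. Against Effector, 2 were called higher in T_Dysf, with a list median of 0.29, and 1 in Acute-7d. Zbtb4, a zinc finger protein that binds methylated DNA, was at 558 and 379 in Effector and between 2109 and 3260 in the 6 day 19 libraries; its log2 fold change was 2.33 (SE 0.22, adjusted p = 0.00713) in T_Dysf and 2.54 (SE 0.22, adjusted p = 0.0106) in Acute-7d. Mbd6, an Mbd family gene, was at 1125 and 1160 in Effector and 2351 and 2312 in T_Dysf, at 1.03 (SE 0.08, adjusted p = 0.00445). All day 19 libraries were above Effector for both genes.

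Of 11 partners of the methyltransferases, 9 were measured, and none was called between T_Dysf and the rested groups. Against Effector, T_Dysf had 2 called lower and a list median of -0.29, and Acute-7d had 2 called lower and a median of -0.105. Cdca7, which with the remodeler Hells opens DNA to maintenance methylation, was at 1568 and 2583 in Effector and between 206 and 321 in the day 19 libraries, a log2 fold change of -3.00 (SE 0.30, adjusted p = 0.00838) in T_Dysf and -2.92 (SE 0.30, adjusted p = 0.0134) in Acute-7d. Hells did not follow it in T_Dysf: it stood at 1384 and 2535 in Effector, 251 and 332 in Acute-7d and 1001 and 813 in T_Dysf. It was called in Acute-7d at -2.69 (SE 0.35, adjusted p = 0.0184), and not in T_Dysf at -1.05 (SE 0.35, adjusted p = 0.117). Cdca7l was at 2245 and 2219.7 in Effector and 892 and 1048 in T_Dysf, at -1.21 (SE 0.10, adjusted p = 0.00499).

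The 4 partners of the Tet enzymes included the only gene of these pathway lists that was called higher in T_Dysf against all 3 other groups. Cxxc5, a CXXC protein related to the DNA-binding part of Tet enzymes, was at 32.0 and 31.1 in Effector, 43.2 and 41.0 in Acute-2d, 29.0 and 44.4 in Acute-7d, and 114.8 and 148.6 in T_Dysf. Both T_Dysf libraries were above all others, with log2 fold changes of 1.83 (SE 0.28, adjusted p = 0.0274) against Acute-7d, 1.61 (adjusted p = 0.0301) against Acute-2d and 2.02 (adjusted p = 0.0157) against Effector. Medians of the list were 0.53 against Acute-7d, 0.045 against Acute-2d, where 2 of the 4 were positive, and 1.06 against Effector. Cxxc4 was at or under the floor in every library. Its value of 0.74 against Acute-7d and against Effector is a middle value of those 2 medians, which are uncertain to that extent. Ogt, the sugar transferase that binds Tet proteins, lies on the X chromosome. It was at 9617 and 5815 in Effector, 18841 and 20244 in Acute-2d, 12903 and 18951 in Acute-7d, and 19716 and 19209 in T_Dysf. The 3 RESUB libraries, low in Xist, were its 3 lowest. It was called in T_Dysf against Effector at 1.38 (SE 0.30, adjusted p = 0.0436), where group and RESUB prefix cannot be told apart.

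Base excision repair and demethylation genes, 12 in number, had 1 called lower in T_Dysf against each rested group and 2 against Effector, where 6 of the 12 had a positive value. The list medians were -0.10 against Acute-7d, -0.09 against Acute-2d and 0.16 against Effector. Apex1, the endonuclease that acts after the glycosylase, was at 331 and 358 in T_Dysf, against 786 and 843 in Acute-7d, 824 and 708 in Acute-2d, and 1187 and 1735 in Effector. Its T_Dysf libraries were the lowest of the 8, at -1.24 (SE 0.20, adjusted p = 0.0288) against Acute-7d, -1.15 (adjusted p = 0.0282) against Acute-2d and -2.06 (adjusted p = 0.00759) against Effector. Ung, a uracil glycosylase, was at 132 and 159 in T_Dysf, 290.1 and 295 in Acute-7d and 784 and 1377 in Effector; it was called against Effector at -2.83 (SE 0.28, adjusted p = 0.00785), and in Acute-7d at -1.83 (adjusted p = 0.0229).

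Enzymes of the methyl donor and of 2-oxoglutarate, the cofactor of the Tet enzymes, had no call between T_Dysf and the rested cells, with medians of -0.06 and -0.34. Against Effector, 2 of 9 were called lower in T_Dysf and 1 in Acute-7d, with medians of -0.67 and -0.66. Mat2a, which makes S-adenosylmethionine, went from 6301 and 8277 in Effector to 3229 and 3243 in T_Dysf, at -1.16 (SE 0.17, adjusted p = 0.0182). Ahcy, which clears its product, was at 1936 and 2181 in Effector and between 717 and 1021 in the day 19 libraries, at -1.26 (SE 0.19, adjusted p = 0.0180) in T_Dysf and -1.37 (SE 0.19, adjusted p = 0.0200) in Acute-7d.

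**Figure D5:**
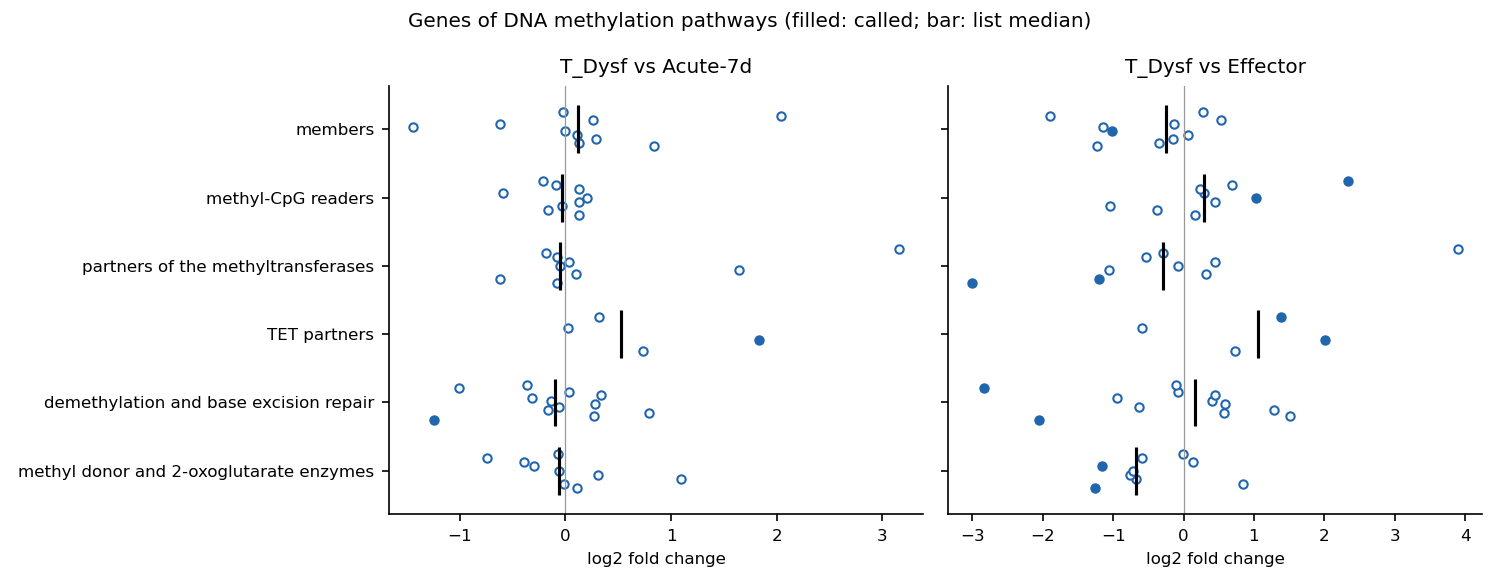
Log2 fold change of the members and of 5 lists of related genes in T_Dysf against Acute-7d (left) and against Effector (right); filled points were called and bars are list medians. Against Acute-7d the filled points are Cxxc5 at 1.83 and Apex1 at -1.24; against Effector, list medians ran from -0.67 to 1.06.

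The study measured methylation at Tcf7, Ccr7 and Pdcd1, and between T_Dysf and the rested groups each differed more in RNA than any member did. Tcf7, a memory transcription factor gene, was at 161 and 122 in T_Dysf, 9991 and 7789 in Acute-7d, 17889 and 18473 in Acute-2d, and 2178 and 8065 in Effector, a log2 fold change of -5.97 (SE 0.63, adjusted p = 0.0114) from Acute-7d to T_Dysf. Ccr7, a lymph node homing receptor, was at 38.9 and 66.7 in T_Dysf and 1718 and 1790.3 in Acute-7d, at -5.08 (SE 0.77, adjusted p = 0.0254). Pdcd1, which encodes PD-1, was at 3754 and 4022 in T_Dysf, 505 and 598 in Acute-7d, and 4017 and 3043 in Effector, at 2.82 (SE 0.20, adjusted p = 0.00488) against Acute-7d and 0.15 (SE 0.20) against Effector. Methylation itself was not analysed here, and the RNA level of an enzyme does not give its activity.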

How the data were processed

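Per the labels and methods, the authors aligned reads to mm10 with STAR, quantified genes, and scaled counts with DESeq2; the deposited values are these normalized signal values, read here as estimated counts on a common scale, and they are not whole reads. Depth was read from the smallest common step, and 61.3% of values under 1000 reads in T_Dysf replicate 1 and 77.5% to 79.7% in the others came out whole within 0.1, so no count model was used. All 24303 genes and 8 libraries entered 1 limma fit (3.58.1, R 4.3.3) with 4 group means, eBayes with a trend, a pseudocount of 1, 2-sided tests and Benjamini-Hochberg adjustment; a fold change is on the log2(value + 1) scale, which understates low genes. Tested on simulated data, the fit returned the planted fold changes without bias, but over the whole table it missed many that the table of genes with a mean of at least 50 gave as calls. Exon lengths are from GENCODE vM21 and promoters from RefSeq. Members and lists were chosen with earlier results of these data known. Named genes are all members, genes of the pathway lists called in any comparison, the 3 loci of the methylation assay and the genes most like the called members; some cell type, sex chromosome, S phase, mitosis and related genes are named to describe the libraries. Tests measure the spread between 2 cultures per group. The paper used donor mice of both sexes. In Acute-7d the 2 libraries also differ in genes of the sex chromosomes and in the RESUB prefix, so the pooled spread holds that difference.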

Additional observations from a re-analysis of the deposited data

How the results depend on the processing

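The 16 member fold changes that were called or at least 0.5 in size on the log2 scale kept their direction in all 360 values. These values came from the 24 alternatives, of which Spearman's rho gives no fold change. Of the values, 290 kept their side of the threshold, 36 lost a call and 34 gained one. Many could not turn, since several alternatives change only the spread or the threshold and leave the fold change as it was. This holds for no minimum fold change and unadjusted p, and for fits without low genes or of protein-coding genes alone. It also holds for only the groups compared, a replicate block, and leaving out a library outside the comparison. Smaller fold changes, such as those of Dnmt3b and Mbd2, were not among the 16. The likeness of 8 of 9 genes moved by less than 0.1 with Spearman's rho, and that of Fignl1 to Tdg fell to 0.79. Numbers of calls were less stable. Members called are given first, for T_Dysf set beside Acute-7d (0), beside Acute-2d (0) and beside Effector (1), then for Acute-7d beside Effector (3). Leaving out low genes, by a mean or by a maximum of at least 50, gave 2, 3, 3 and 3. With the limit on the mean the prior spread was worth 3.36 degrees of freedom, against 0.888 over the whole table. Both limits also left fewer genes to test. Unadjusted p gave 2, 3, 4 and 3. In T_Dysf against Acute-2d, 1 member was called by limma-voom, with no minimum fold change, and with only the groups compared, where 1300 of all genes were called. In T_Dysf against Effector the number was 3 by limma-voom, against 11% of all genes. It was 2 with equal totals and with quantile normalization, where 2251 and 2337 of all genes were called. It was 0 with equal 75th percentiles, where 2227 were called, with only the groups compared and with a term for the RESUB libraries. In Acute-7d against Effector the number was 0 with only the groups compared and 1 with the RESUB term. It was 2, without Tdg, with equal 75th percentiles and with quantile normalization, where 2010 and 1989 of all genes were called. Leaving out a library in turn gave 0 to 1 members in T_Dysf against Acute-2d, 0 to 2 in T_Dysf against Effector and 0 to 3 in Acute-7d against Effector, with fewer residual degrees of freedom and a lone sample assumed to vary like the other groups.

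Of all genes, limma called 1353, 1787, 2241, 1958 and, between Acute-7d and Acute-2d, 41. With no minimum fold change these were 2238, 2882, 3787, 3613 and 41, and with unadjusted p 3184, 3517, 4060, 3515 and 910. With only the groups compared, 465 genes were called in T_Dysf against Effector, 155 in Acute-7d against Effector and 147 between the rested groups. The RESUB term gave 541 in T_Dysf against Acute-7d, 386 in T_Dysf against Effector, 808 in Acute-7d against Effector and 168 between the rested groups. The 41 became 81 with a pseudocount of 0.1, 4 with 10, 1 without low genes, 8 with quantile normalization (6 higher and 2 lower, against 19 and 22) and 0 by limma-voom. Leaving out a library in turn gave 422 to 1534, 656 to 1867, 585 to 2484, 378 to 2156 and 61 to 376 genes. Equal 75th percentiles moved the median of genes with a mean of at least 50 in Acute-7d against Effector by 0.11.

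A replicate block left 0 members in T_Dysf against Effector and 891 genes in T_Dysf against Acute-7d. The numbers do not pair the libraries: the correlation of replicate differences between groups was from -0.20 to 0.20 and over 0.1 in 2 of 6 pairs.

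Among alternatives chosen after seeing the data, the 5 libraries with no RESUB prefix gave 1 member in T_Dysf against Acute-2d, 628 genes in T_Dysf against Acute-7d and 266 between the rested groups. Protein-coding genes alone gave 1 member in T_Dysf against Acute-2d, 2 in T_Dysf against Effector and 26 genes between the rested groups. The member counts of these fits have no share of all genes beside them, so they cannot be read against a background. Where no clause names one, the cause was not tested. Depth limits Tet1 most, at 29.4 to 150.6 normalized counts, and Uhrf1 was at 237 in its lowest library.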

Other observations

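Dnmt3c, a rodent copy of Dnmt3b that lies beside it on chromosome 2 and is known from the male germ line, was listed at 0 in the 6 Effector, Acute-2d and Acute-7d libraries and at 21.4 and 10.7 normalized counts in T_Dysf. It was chosen after its values were seen. No test is given, since it was picked for this pattern and the other groups have no spread. The genes are alike in sequence, and the value is uncertain. Dnmt3b itself differed by less than a 2-fold change between T_Dysf and Acute-7d.

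Pooled spread within groups separated the members. The SD of log2 values was 0.66 for Uhrf1, 0.40 for Tet1 and 0.34 for Dnmt1, against a median of 0.20 among the 12028 genes whose mean reached 50. It was 0.06 for Dnmt3b, 0.09 for Mbd2 and 0.12 for Uhrf2. Dnmt1, Uhrf1 and the S phase sum were all higher in Effector replicate 2 than in replicate 1, at 12910.0 against 7132, 8727 against 4433 and 93175 against 52025.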
